A study of Rattus norvegicus with 8 samples.

Results

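The ERK pathway feedback genes described here are 10 genes whose transcription is a common readout of signalling through the kinase ERK: the phosphatase genes Dusp4, Dusp6 and Dusp9, the Sprouty and Spred genes Spry1, Spry2, Spry4 and Spred1, the ETS transcription factor genes Etv4 and Etv5, and Phlda1. They were chosen by gene symbol, with earlier results of these data known, and all 10 were found among the 22228 named genes of the expression table. Their counts and medians beside those of all tested genes are therefore description only. All 10 also could be tested, among 13571 genes in all. Levels are given as TPM, which divides by transcript length and scales each library to a common total, and a gene was tested where 2 or more of the 8 libraries reached 1 TPM.

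RNA sequencing compared 4 groups of cells of the rat strain Crlj:WI, with 2 libraries each and a genotype labelled as wild type. Embryonic stem cells (ESC) were kept on mouse embryonic fibroblast feeders in N2B27 with rat LIF at 1000 U/ml, the GSK3 inhibitor CHIR99021 at 3 µM and PD0325901 at 1 µM, which inhibits MEK, the kinase directly above ERK. Epiblast-like cells (EpiLC) were made from ESC by 60 h of aggregate culture in which the medium held bFGF (12 ng/ml), activin A (20 ng/ml) and 1% KSR, and no MEK inhibitor is listed for that medium or for the later ones. Day 3 primordial germ cell-like cells (PGCLC_d3) came from EpiLC aggregates moved to N2B27 with BMP4 at 500 ng/ml, LIF at 1000 U/ml, SCF at 100 ng/ml and EGF at 50 ng/ml, and were sorted for a Nanos3-T2A-tdTomato reporter. For PGCLC_d3ag3, 5000 PGCLC_d3 were combined with 50000 gonadal somatic cells (E15.5, female, depleted of c-KIT-positive germ cells), and cells positive for the reporter were sorted on day 3 of this aggregation, whose medium was N2B27 with 5% KSR and no listed growth factor. Changes along this series therefore combine changes of medium and of cell state. Added to these are the selection of reporter-positive cells in both PGCLC groups and the culture with gonadal somatic cells in PGCLC_d3ag3. The design cannot tell these apart. Whether the 2 replicates of a group were separate cultures is not said in the labels, and the spread behind each p-value may therefore be technical.

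As background, receptor tyrosine kinases for FGF, EGF or SCF activate RAS, which activates the kinases RAF, MEK and ERK in turn. ERK activity switches on transcription of its own inhibitors. Among them are DUSP phosphatases that remove phosphate from ERK, Sprouty proteins that act between receptor and RAF, and SPRED1, which brings the RAS inhibitor neurofibromin to the membrane. In pluripotent cells of rodents, blocking MEK helps to hold the naive state, and FGF signalling through ERK drives cells out of it. Transcript levels were measured here, not ERK phosphorylation.

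Summed over 6 ESC markers, such as Nanog and Esrrb, libraries held 2050 to 2060 TPM in ESC and 84.3 to 200 elsewhere. The 6 EpiLC markers summed to 3220 to 3460 TPM in EpiLC and at most 170.0 elsewhere, although Fgf5 among them was near 0 in all groups. The 3 gonadal germ cell markers summed to 1030 to 1060 TPM in PGCLC_d3ag3, 2.22 to 2.5 in PGCLC_d3 and at most 180.0 elsewhere. Most of the PGCLC_d3ag3 sum was Dazl, at 785 TPM there and at most 13.6 in the other groups. Ddx4 was at 202 TPM in PGCLC_d3ag3, but also at 148 in EpiLC and 54.7 in ESC. The 7 PGCLC markers summed to 1800 to 1820 TPM in PGCLC_d3 and 1400 to 1440 in PGCLC_d3ag3, but also to 1410 to 1420 in ESC. This sum set apart EpiLC alone (60.2 to 71.6). Most of the ESC sum was Dppa3, at 1309 TPM there and 382 in PGCLC_d3. Nanos3 was at 0.36 TPM in ESC and 10.8 in PGCLC_d3, and Prdm14 at 16.9 and 86.0. Markers of other cells were not absent and, apart from Pecam1, mostly low. The 10 gonadal somatic markers summed to 14.2 to 15.3 TPM in PGCLC_d3ag3, 17.2 to 18.0 in EpiLC and at most 7.19 in the other groups, with Foxl2 and Cyp17a1 at 0 in ESC and EpiLC. The 8 fibroblast markers summed to 23.9 to 29.3 TPM in ESC, 43.9 to 82.6 in EpiLC, 3.71 to 7.02 in PGCLC_d3 and 12.0 to 15.3 in PGCLC_d3ag3. Of these, Dcn and Lum were at 0 in PGCLC_d3, Lum in PGCLC_d3ag3 and Thy1 in ESC. The 6 endothelial and blood markers summed to 141 to 150.0 TPM in PGCLC_d3ag3, 103 to 105 in ESC and at most 51.4 elsewhere. Most of that sum was Pecam1, while Ptprc and Hbb were at 0 in ESC and PGCLC_d3. Hbb, a haemoglobin gene, was at 8.05 ± 4.59 TPM (SD, n = 2) in PGCLC_d3ag3 and at 0 in the other groups. The part of such cells in the values below was not tested. In a sorted or bulk sample, fewer cells of a type and less RNA per cell cannot be told apart. Relative to the shallowest library, ESC replicate 1, the depth read from the steps between low values ran from 1.14 to 1.5 in the other ESC, EpiLC and PGCLC_d3 libraries and was 2.17 and 2.38 in PGCLC_d3ag3. TPM keeps no read totals, so absolute depth and counting intervals are not given.

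The 10 genes did not share 1 pattern. PGCLC_d3 held the highest mean of 7 of them, EpiLC of 2 (Spry4 and Spred1) and ESC of 1 (Spry2). For comparison, 32.9% of all tested genes had their highest mean in PGCLC_d3. The 7 depend on scaling. When samples were rescaled by the median of ratios, the log2 difference of PGCLC_d3 from ESC was -0.065 for Etv5. That of PGCLC_d3 from EpiLC was then 0.14 for Dusp6 and did not pass (limma adjusted p = 0.197). ESC, the group with the MEK inhibitor, held the lowest mean of 6 genes (Dusp4, Dusp6, Dusp9, Spry1, Spred1 and Phlda1), where 32.4% of all tested genes had their lowest mean in ESC. Etv4 and Etv5 were lowest in EpiLC instead, and Spry2 and Spry4 in PGCLC_d3ag3. Summed over the 10 genes, a library held 428 to 431 TPM in ESC, 565 to 582 in EpiLC, 1330 in each PGCLC_d3 library and 426 to 447 in PGCLC_d3ag3. The sums of ESC and PGCLC_d3ag3 were alike and their make-up was not: Etv5, Spry2 and Etv4 led in ESC, and Etv5, Dusp6 and Spry1 in PGCLC_d3ag3.

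**Figure D1:**
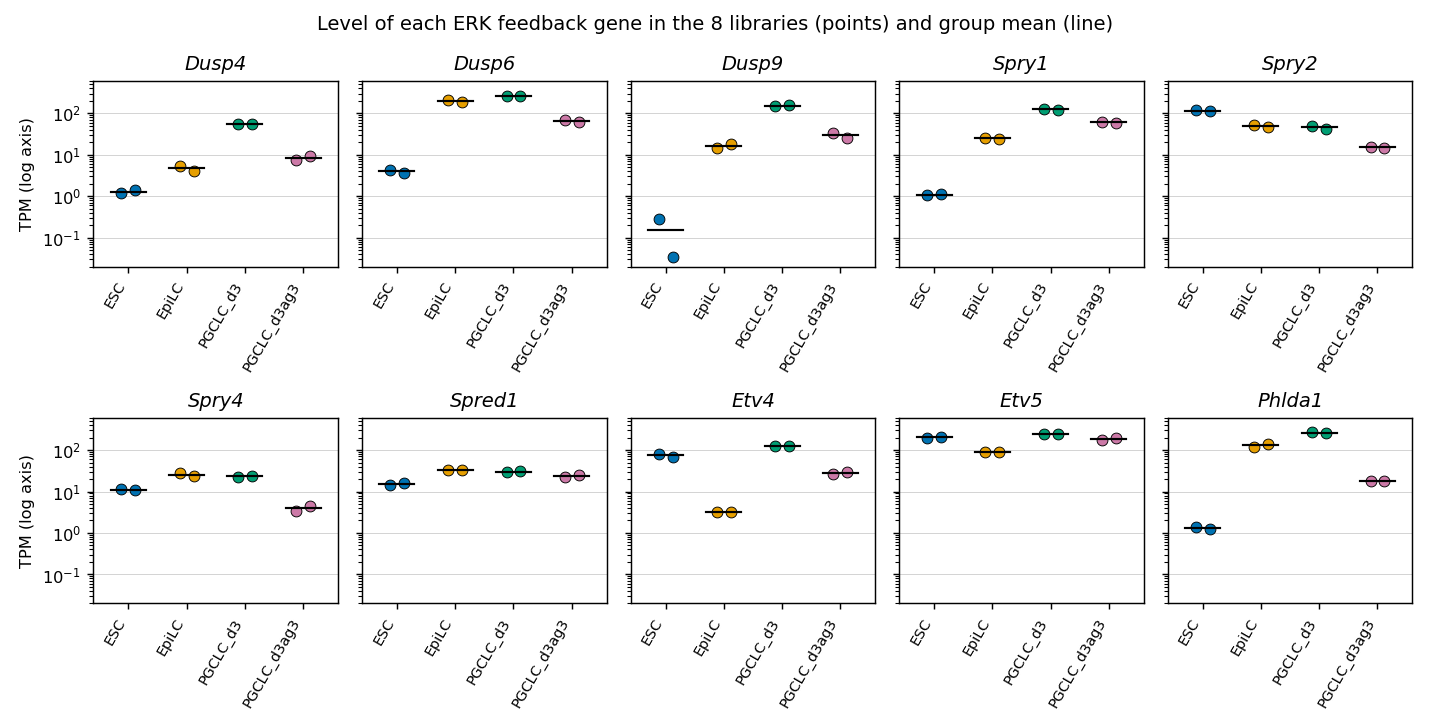
TPM of each gene on a log axis in the 4 groups, with 1 point per library and a line at the group mean (n = 2). Dusp4, Dusp6, Dusp9, Spry1 and Phlda1 lie under 5 TPM in ESC and over 50 in PGCLC_d3, whereas Spry2, Etv4 and Etv5 lie over 50 in ESC.

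Promoter sequences are shown for 4 genes that took different courses from ESC to EpiLC: Dusp6 and Phlda1, which rose by over 5 on the log2(TPM+1) scale, Spry4, which rose by 1.13, and Etv5, which fell. As background, the repressor CIC (Capicua) sits on octamers near several ERK-responsive genes until ERK activity removes it, and ETS factors such as ETV4 and ETV5 bind sites with a GGAA core. The sequences are the 250 bases before the annotated start of the gene in RefSeq, build GRCr8, which is not the build of the expression table. RefSeq windows matched 8 of the 10 genes, with Dusp4 and Etv4 unmatched. Capitals mark matches, on either strand, to the CIC octamers TGAATGAA, TGAATGGA, TCAATGAA and TCAATGGA, to the ETS letters CCGGAA, or to the AP-1 letters TGANTCA. The windows lie at chr7:35979354-35979603, plus strand (Dusp6), chr7:48853440-48853689, plus strand (Phlda1), chr18:30702547-30702796, minus strand (Spry4) and chr11:92113013-92113262, plus strand (Etv5).
Dusp6: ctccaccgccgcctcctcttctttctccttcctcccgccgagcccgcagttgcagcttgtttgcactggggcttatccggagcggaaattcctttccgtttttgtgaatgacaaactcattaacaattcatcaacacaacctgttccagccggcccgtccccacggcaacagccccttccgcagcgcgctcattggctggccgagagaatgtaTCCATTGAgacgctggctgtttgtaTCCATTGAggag
Phlda1: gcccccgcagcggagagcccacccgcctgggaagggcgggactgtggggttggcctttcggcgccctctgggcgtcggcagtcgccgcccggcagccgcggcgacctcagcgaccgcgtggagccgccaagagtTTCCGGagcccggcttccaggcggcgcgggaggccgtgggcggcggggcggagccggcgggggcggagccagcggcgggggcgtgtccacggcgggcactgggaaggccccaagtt
Spry4: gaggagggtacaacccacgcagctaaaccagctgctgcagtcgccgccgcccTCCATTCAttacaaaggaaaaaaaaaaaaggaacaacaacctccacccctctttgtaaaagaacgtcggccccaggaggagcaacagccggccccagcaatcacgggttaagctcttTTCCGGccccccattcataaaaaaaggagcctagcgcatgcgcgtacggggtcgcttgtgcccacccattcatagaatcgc
Etv5: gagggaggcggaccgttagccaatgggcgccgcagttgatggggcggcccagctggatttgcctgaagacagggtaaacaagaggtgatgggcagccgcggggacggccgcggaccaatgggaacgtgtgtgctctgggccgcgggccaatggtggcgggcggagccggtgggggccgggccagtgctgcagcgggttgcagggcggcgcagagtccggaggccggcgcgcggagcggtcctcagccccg

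In the Dusp6 window the octamer TCAATGGA occurred at 2 places, positions -37 to -30 and -12 to -5 from the start, both read as TCCATTGA on the printed strand. This octamer was added to the search after the windows were seen, so its presence here is no support for any link with the levels. In the Spry4 window TGAATGGA occurred at positions -198 to -191, read as TCCATTCA, and the ETS letters CCGGAA at -81 to -76, read as TTCCGG. Phlda1 held CCGGAA at -116 to -111, and 1 of the 2 RefSeq windows of Spry2 held it at -171 to -166. No match to these letters lay in the windows of Etv5, Dusp9, Spry1 or Spred1, and none of the 9 windows held TGANTCA. Of all 33469 RefSeq windows, 3.58% held any of the 4 octamers, 12.6% held CCGGAA and 6.34% held TGANTCA. Among windows of tested genes the shares were 2.32%, 23.2% and 4.37%. The sequences describe these windows only, and binding was not measured.

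Dusp6, which encodes a cytoplasmic phosphatase specific for ERK, was at 4.31 and 3.70 TPM in the ESC libraries, 210.3 and 182 in EpiLC, 258 and 263 in PGCLC_d3 and 67.5 and 62.6 in PGCLC_d3ag3. All ESC libraries lay far under all others, and no groups overlapped. The mean was 49.1 times higher in EpiLC than in ESC, a difference of log2(TPM+1) of 5.30 (SE 0.087, limma adjusted p = 1.04e-10). From EpiLC to PGCLC_d3 it rose by a further 0.41 (SE 0.087, limma adjusted p = 0.00175), and after aggregation it fell by 1.99 (SE 0.087). The small rise to PGCLC_d3 depended on scaling: it was 0.14 (adjusted p = 0.197) when samples were rescaled by the median of ratios. PGCLC_d3ag3 still lay 3.72 above ESC.

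Dusp4 encodes a phosphatase of the nucleus that is induced by ERK activity. Its levels were 1.18 and 1.40 TPM in ESC, 5.44 and 4.02 in EpiLC, 56.6 and 54.3 in PGCLC_d3 and 7.59 and 9.11 in PGCLC_d3ag3. Only the PGCLC_d3 libraries were above 10 TPM. The step from EpiLC to PGCLC_d3 was 3.31 on the log2(TPM+1) scale (SE 0.148, limma adjusted p = 3.45e-08) and that from ESC to EpiLC 1.31 (SE 0.148, limma adjusted p = 2.82e-05), or 0.63 with 5 added to TPM in place of 1. Aggregation was followed by a fall of 2.6 (SE 0.148), to a level 0.71 above EpiLC (limma adjusted p = 0.00141), or 0.46 with 5 added to TPM.

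Dusp9, an X-linked gene for a further ERK-preferring phosphatase, was close to absent in ESC. Those libraries held 0.277 and 0.0338 TPM, against 14.8 and 18.0 in EpiLC, 147 and 162 in PGCLC_d3 and 33.1 and 25.9 in PGCLC_d3ag3. Between EpiLC and PGCLC_d3 its mean rose 9.39-fold (log2 difference 3.16, SE 0.152, limma adjusted p = 5.52e-08), and it fell by 2.36 (SE 0.152) after aggregation. No fold is given against ESC, since the log2 difference of EpiLC from ESC, 3.91 (SE 0.152), depends on the pseudocount and was 6.19 with 0.1 and 2.05 with 5 added to TPM in place of 1. With 0.1 added, the difference of PGCLC_d3ag3 from EpiLC (0.80, limma adjusted p = 7.54e-04) no longer passed (0.84, adjusted p = 0.0748).

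The Sprouty genes split. Spry1, which encodes an inhibitor of receptor signalling upstream of ERK, was at 1.05 and 1.11 TPM in ESC, 25.2 and 24.7 in EpiLC, 127 and 121 in PGCLC_d3 and 62.3 and 59.1 in PGCLC_d3ag3. It rose at both of the first steps, by 3.64 and 2.27 on the log2(TPM+1) scale (SE 0.079 each, limma adjusted p = 4.1e-10 and 6.93e-09). With 5 added to TPM the first of these was 2.30. Its fall after aggregation, by 1.02 (SE 0.079), left it at 0.489 of the PGCLC_d3 mean and above EpiLC by 1.25.

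Spry2, its paralogue, fell where Spry1 rose from ESC to EpiLC, and both fell after aggregation. Spry2 levels were 120 and 114 TPM in ESC, 52.6 and 46.7 in EpiLC, 49.5 and 43.0 in PGCLC_d3 and 15.4 and 14.8 in PGCLC_d3ag3. ESC, whose medium contained the MEK inhibitor, held the highest level, and EpiLC and PGCLC_d3 overlapped. The change from ESC to EpiLC was -1.22 (SE 0.088, limma adjusted p = 1.19e-06) and that after aggregation -1.55 (SE 0.088, limma adjusted p = 3.97e-07). Between EpiLC and PGCLC_d3 the difference was -0.10, with a 95% confidence interval from -0.30 to 0.10 (limma adjusted p = 0.317).

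Spry4 was at 11.2 and 11 TPM in ESC, 28.2 and 23.1 in EpiLC, 22.8 and 23.2 in PGCLC_d3 and 3.32 and 4.59 in PGCLC_d3ag3. It rose by 1.13 from ESC to EpiLC (SE 0.141, limma adjusted p = 5.91e-05), and EpiLC and PGCLC_d3 overlapped, with a difference of -0.14 and an interval from -0.46 to 0.18 (limma adjusted p = 0.383). PGCLC_d3ag3 lay under every other group, 2.29 lower than PGCLC_d3 (SE 0.141, limma adjusted p = 6.52e-07) and 1.30 lower than ESC (limma adjusted p = 1.49e-05; -0.85 with 5 added to TPM).

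Spred1 moved least. It was at 14.2 and 16.2 TPM in ESC, 33.3 and 32.4 in EpiLC, 28.8 and 31.0 in PGCLC_d3 and 21.8 and 25.4 in PGCLC_d3ag3, so that its lowest and highest group means were 2.16-fold apart. The rise to EpiLC was 1.06 (SE 0.102, limma adjusted p = 8.71e-06). PGCLC_d3 was not told apart from EpiLC (difference -0.13, interval from -0.36 to 0.10, limma adjusted p = 0.272), but passed as lower under quantile normalization (-0.43, adjusted p = 0.00138) and median-of-ratios rescaling (-0.39, adjusted p = 0.00316). The fall after aggregation, -0.33 (SE 0.102, limma adjusted p = 0.0148), did not pass under quantile normalization (-0.06, adjusted p = 0.53) or median-of-ratios rescaling (-0.12, adjusted p = 0.239), nor without PGCLC_d3 replicate 2 (-0.28, adjusted p = 0.105) or PGCLC_d3ag3 replicate 1 (-0.23, adjusted p = 0.0903).

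Etv4 and Etv5 encode closely related ETS transcription factors of the PEA3 group and are widely used as ERK output genes. Etv4 was at 78.9 and 69.5 TPM in ESC, 3.25 and 3.16 in EpiLC, 128 and 122 in PGCLC_d3 and 26.6 and 30.3 in PGCLC_d3ag3. EpiLC stood apart as the low group. Etv4 fell by 4.16 from ESC to EpiLC (SE 0.091, limma adjusted p = 4.25e-10), rose 39.1-fold, by 4.91, from EpiLC to PGCLC_d3 (SE 0.091, limma adjusted p = 2.09e-10) and fell by 2.1 after aggregation (SE 0.091). PGCLC_d3 lay 0.75 above ESC (SE 0.091), or 0.44 after median-of-ratios rescaling (adjusted p = 0.00196).

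Etv5 had the same order of group means over a narrower range: 199 and 210.4 TPM in ESC, 87.3 and 91.9 in EpiLC, 240.2 and 246 in PGCLC_d3 and 170.4 and 197 in PGCLC_d3ag3. Its level in every group was at or above the 83.7th percentile of tested genes. It fell by 1.18 from ESC to EpiLC (SE 0.072, limma adjusted p = 3.51e-07) and rose by 1.43 from EpiLC to PGCLC_d3 (SE 0.072, limma adjusted p = 7.62e-08). The fall after aggregation was 0.41 (SE 0.072, limma adjusted p = 6.46e-04), which became -0.19 (adjusted p = 0.026) under median-of-ratios rescaling. PGCLC_d3 exceeded ESC by 0.25 (SE 0.072, limma adjusted p = 0.00999). That call ended under median-of-ratios rescaling, which turned the sign (-0.065, adjusted p = 0.396), and without ESC replicate 1 (0.21, adjusted p = 0.0688) or PGCLC_d3 replicate 2 (0.23, adjusted p = 0.0581). PGCLC_d3ag3 and ESC differed by -0.16, with an interval from -0.32 to 0.004 (limma adjusted p = 0.0688), and this difference passed with the replicate number as a block (adjusted p = 0.0299), under quantile normalization (adjusted p = 0.0438), under median-of-ratios rescaling (adjusted p = 0.00544) and without PGCLC_d3ag3 replicate 2 (-0.26, adjusted p = 0.00456), while it was -0.05 (adjusted p = 0.456) without PGCLC_d3ag3 replicate 1.

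Phlda1 encodes a protein with a pleckstrin homology-like domain and belongs to transcript scores of ERK activity. It was at 1.39 and 1.26 TPM in ESC, 121 and 138 in EpiLC, 267 and 260 in PGCLC_d3 and 18.4 and 18.1 in PGCLC_d3ag3. From ESC to EpiLC it rose by 5.81 on the log2(TPM+1) scale (SE 0.083, limma adjusted p = 6.89e-11), and after aggregation it changed by -3.78 (SE 0.083, limma adjusted p = 2.26e-09). The mean in PGCLC_d3ag3 was 0.0693 of that in PGCLC_d3, yet 13.8 times that in ESC. Between them the rise from EpiLC to PGCLC_d3 was 1.02 (SE 0.083, limma adjusted p = 2.09e-06). With 5 added to TPM in place of 1, the difference from ESC was 4.41 for EpiLC. For PGCLC_d3ag3 it was then 1.88 in place of 3.05.

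Counted over the genes, the step from ESC to EpiLC raised 7 and lowered 3 (Spry2, Etv4 and Etv5) at an adjusted p under 0.05, where 67.3% of all tested genes passed, 35.4% higher and 31.8% lower. On the log2(TPM+1) scale 7 rose and 3 fell by at least 1, a size that 12.5% of tested genes reached upward and 10.8% downward. With 5 added to TPM in place of 1, Dusp4 (0.63), Spry4 (0.92) and Spred1 (0.91) lay under that size. The median of the 10 differences was 1.22 and that of all tested genes 0.04. From EpiLC to PGCLC_d3, 7 rose, 0 fell and 3 (Spry2, Spry4 and Spred1) did not pass, against 47.3% higher and 27.6% lower of all tested genes (74.9% in all). A rise of at least 1 was seen in 6 of the 10 and in 18.7% of tested genes, and a fall of that size in 0 of the 10 and in 10.8%. The median difference was 1.22, against 0.21 for all tested genes. After aggregation all 10 fell, where 44.8% of tested genes fell and 25.7% rose (70.4% in all). The differences ran from -0.33 for Spred1 to -3.78 for Phlda1. Their median was a log2 difference of -2.04, against -0.18 for all tested genes.

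**Figure D2:**
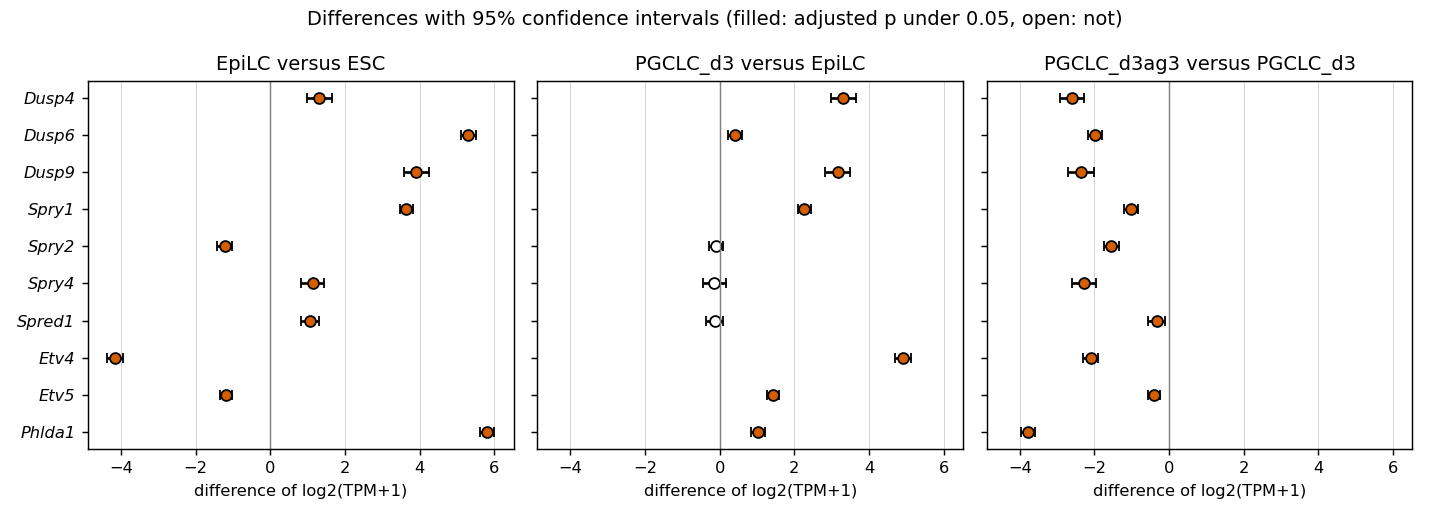
Difference of log2(TPM+1) of each gene at the 3 successive steps, with 95% confidence intervals from limma and filled points where the adjusted p is under 0.05. The first panel has points on both sides of 0, from -4.16 for Etv4 to 5.81 for Phlda1, and in the third panel all 10 points lie under 0.

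The counts at the later steps depended on how libraries were scaled. Under median-of-ratios rescaling that median was -0.02 in place of 0.21 for PGCLC_d3 versus EpiLC, and the share of higher genes among all calls was 49.2% in place of 63.2% (51.1% under quantile normalization). Then 6 of the 10 genes rose and Spry2 (-0.36, adjusted p = 0.00552), Spry4 (-0.40, adjusted p = 0.0241) and Spred1 (-0.39, adjusted p = 0.00316) passed as lower. Quantile normalization gave 7 rises and the same 3 genes lower. For PGCLC_d3ag3 versus PGCLC_d3 the share of higher genes among calls was 36.4%, 50.0% under median-of-ratios rescaling and 49.4% under quantile normalization, and under either rescaling 9 of the 10 genes fell, with Spred1 not passing. Phlda1 at the second step and Spry1 at the third lay just past a difference of 1 and came to 0.75 and -0.81 under median-of-ratios rescaling.

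Set against ESC, PGCLC_d3 had 9 of the 10 genes higher and 1, Spry2, lower, with 49.6% of all tested genes higher and 27.4% lower (77.0% in all). The share of higher genes among calls was 64.4%, or 49.8% under median-of-ratios rescaling and 53.1% under quantile normalization. The differences ran from 0.25 for Etv5 to 7.07 for Dusp9, next to -1.32 (SE 0.088, limma adjusted p = 4.12e-07) for Spry2. That of Dusp9 depends on the pseudocount and was 9.42 with 0.1 and 4.95 with 5 added to TPM in place of 1. With 5 added, Phlda1 had the largest difference (5.41). Under median-of-ratios rescaling 8 genes were higher, since Etv5 did not pass (-0.065, adjusted p = 0.396), and its call also ended without ESC replicate 1 (0.21, adjusted p = 0.0688) or PGCLC_d3 replicate 2 (0.23, adjusted p = 0.0581). PGCLC_d3ag3 had 6 genes higher than ESC and 3 lower (Spry2, Spry4 and Etv4), with 42.5% and 34.8% of all tested genes (77.3% in all). Against EpiLC, PGCLC_d3ag3 had 5 genes higher (Dusp4, Dusp9, Spry1, Etv4 and Etv5) and 5 lower (Dusp6, Spry2, Spry4, Spred1 and Phlda1), with 41.0% and 36.7% of all tested genes (77.7% in all). These comparisons share libraries with one another, so their counts are not separate support.

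Over the 40 pairs of replicate values, the log2 gap between libraries on the log2(TPM+1) scale had a median of 0.106 and a maximum of 0.374, for Spry4 in PGCLC_d3ag3. This scale flattens gaps between values under 1 TPM, such as those of Dusp9 in ESC (0.277 and 0.0338 TPM). Likeness of pattern was measured as the root mean square difference of log2(TPM+1), centred on each gene's mean, over the 8 libraries, which share their groups. By this measure Dusp9 and Spry1 were the closest pair of the 10 genes (0.533), followed by Dusp6 and Phlda1 (0.667). Etv4 was farthest from Phlda1 (3.58) and from Dusp6 (3.35). Spry1 and Spry2, relatives by family, were far apart (3.07), whereas the measure was 1.34 for Etv4 and Etv5 and 1.46 for Dusp4 and Dusp6. Etv5 was the nearest of the 10 genes to Etv4. The measure reflects the size of changes as well as their direction. Spred1 and Etv5 came to 0.820, although EpiLC held the highest mean of Spred1 and the lowest of Etv5.

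**Figure D3:**
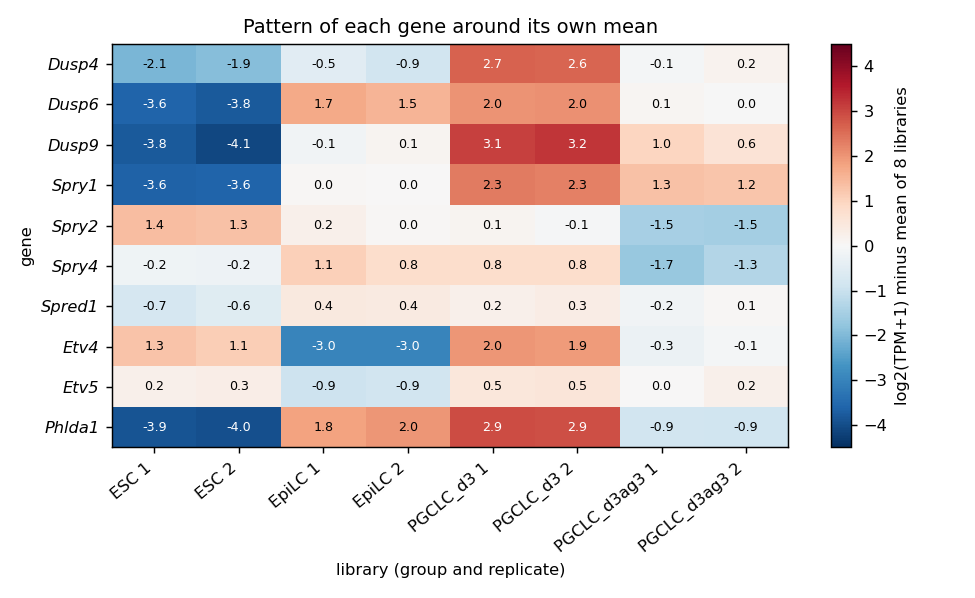
Log2(TPM+1) of each gene in each of the 8 libraries minus the gene's mean over them, with red above and blue below the mean. Dusp6, Dusp9, Spry1 and Phlda1 are lowest in both ESC libraries, Etv4 is lowest in both EpiLC libraries, and the columns of PGCLC_d3 are highest for 7 genes.

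Outside the 10 genes, the nearest patterns were sought among tested genes with a mean of at least 10 TPM in some group and no clone-style symbol. Pde2a came closest to Dusp4 (root mean square difference 0.162), Col18a1 to Dusp6 (0.244), Ccnjl to Dusp9 (0.396) and Pim2 to Spry1 (0.175). Myl6 was nearest to Spry2 (0.134), Cxadr to Spry4 (0.168), Ipo13 to Spred1 (0.060) and Mthfsd to Etv5 (0.104). Ube2l6 was nearest to Etv4 (0.270) and Unc5b to Phlda1 (0.625), the largest of these 10 values. Col18a1, a collagen gene, was also the third nearest to Phlda1 (0.716). A narrow range of levels, as in Spred1 and Etv5, makes small values of this measure more likely.

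Counts for this list and the lists that follow stand beside these shares of all tested genes. From ESC to EpiLC 35.4% were higher and 31.8% lower, with a median of 0.04. From EpiLC to PGCLC_d3 47.3% were higher and 27.6% lower (median 0.21), and after aggregation 25.7% and 44.8% (median -0.18). Several counts lay near these shares, and other scalings were not tried on the lists. For the kinases and adaptors that carry the signal, median differences were small, but single genes moved in both directions at all 3 steps. In a list of 18 ERK cascade genes, from adaptors to kinases, 6 rose, 6 fell and 6 did not pass from ESC to EpiLC, with a median of 0.08. Among the rises, Mapk3, a kinase gene at the end of the cascade, changed by 1.31 and Shc1, an adaptor, by 1.23. Among the falls, the kinase gene Araf changed by -1.91. From EpiLC to PGCLC_d3, 6 rose and 10 fell, with a median of -0.27, opposite in sign to that of all tested genes (0.21). Braf, a further kinase gene, and the scaffold gene Ksr1 had the largest rises (1.46 and 0.71), and the adaptor gene Gab1 and Mapk3 the largest falls (-2.09 and -1.78). After aggregation 6 rose and 9 fell, with a median of -0.25.

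A second list held 15 other inhibitors of the pathway, of which 14 were tested and Spry3 was too low. From ESC to EpiLC 8 rose and 4 fell, with a median of 0.45. The largest rises were Spred3, a relative of Spred1, at 2.72, and the phosphatase gene Dusp7 at 1.54. The largest falls were Pebp1, which encodes a RAF-binding inhibitor, at -0.82, and Errfi1, an inhibitor of EGF receptors, at -0.81. From EpiLC to PGCLC_d3 7 rose and 5 fell, with a median of 0.30: the phosphatase genes Dusp1 and Dusp2 rose by 3.11 and 2.11, and Spred3 and Nf1, which encodes neurofibromin, fell by 1.67 and 0.86. After aggregation 9 fell and 2 rose, with a median of -0.52.

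Of 9 other genes used as ERK outputs, 4 rose and 3 fell from ESC to EpiLC, with a median of 0.36. Egr1 and Myc, transcription factor genes of the early response to growth factors, rose by 2.52 and 1.77, and the ephrin receptor gene Epha4 and the cyclin gene Ccnd1 fell by 2.30 and 1.94. Egr1 differed between the ESC libraries, with a mean of 16.3 ± 15.7 TPM (SD, n = 2). From EpiLC to PGCLC_d3 4 rose and 3 fell, with a median of 0.19. Fos and Ier3, genes of the immediate early response, rose by 2.95 and 1.31, and Ccnd1 and Myc fell by 2.22 and 1.21. After aggregation 5 fell and 2 rose (Fos by 1.95 and Ier3 by 0.62), with a median of -0.94. Ccnd1, often grouped with Dusp6 in scores of ERK activity, thus went from 290.5 ± 21.8 TPM in ESC to 74.8 ± 5.6, 15.2 ± 0.405 and 1.21 ± 0.068 (SD, n = 2) in EpiLC, PGCLC_d3 and PGCLC_d3ag3. The list did not share this course. Fos went from 6.90 ± 5.39 TPM in ESC to 7.91 ± 1.19, 67.4 ± 3.12 and 262.6 ± 1.29 in the same groups.

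**Figure D4:**
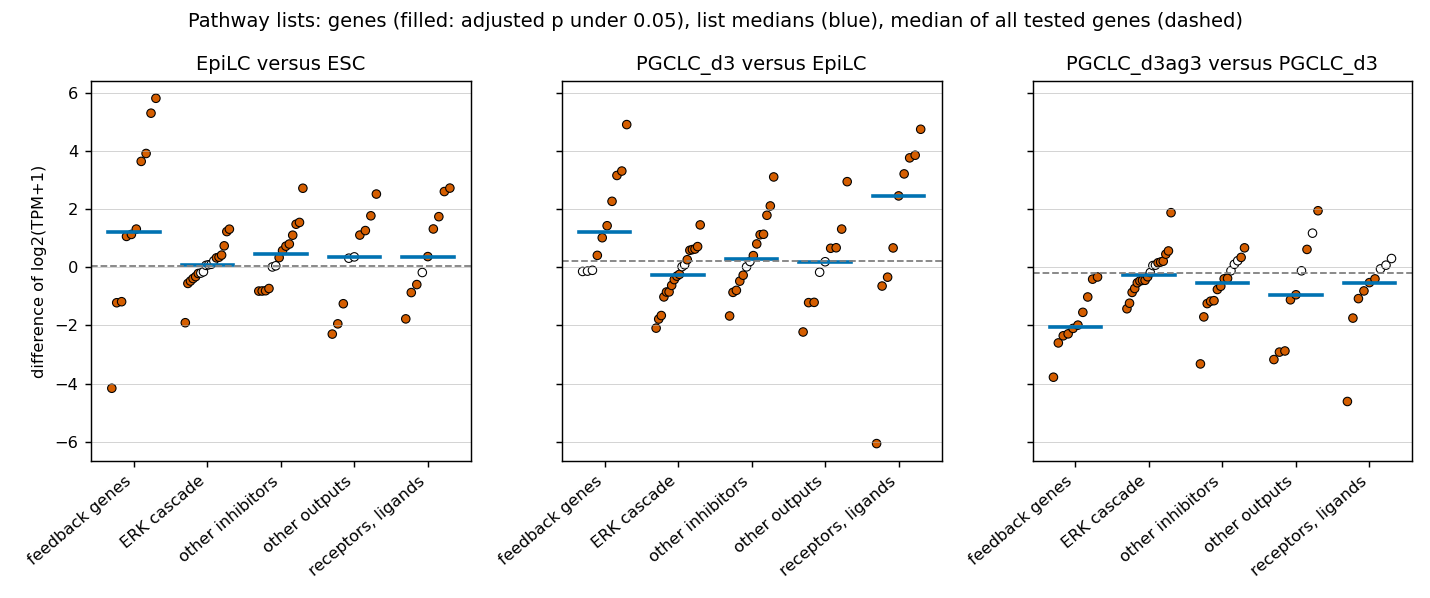
Difference of log2(TPM+1) of every tested gene of the feedback set and of 4 further pathway lists at the 3 successive steps, with filled points where the limma adjusted p is under 0.05, blue lines at list medians and a dashed line at the median of all tested genes. The cascade genes lie between -2.09 and 1.88 in all 3 panels, and the feedback genes reach from -4.16 to 5.81.

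Receptors and ligands that lead into the pathway took different courses. Fgfr1, the most abundant of the 4 FGF receptor genes in every group, was at 130.1 ± 9.88 TPM in ESC, 168 ± 0.828 in EpiLC, 267 ± 5.00 in PGCLC_d3 and 127 ± 20.5 in PGCLC_d3ag3 (SD, n = 2). Kit, the receptor of SCF, was at 50.2 ± 9.09, 13.9 ± 1.55, 398 ± 1.18 and 276 ± 13.7, and the ligand gene Fgf8 at 0.203 ± 0.174, 6.41 ± 1.92, 105 ± 18.4 and 3.34 ± 0.832. Egfr, the receptor of the EGF that PGCLC medium holds, was under 0.1 TPM on average in each group and was not tested. In this list of 12 genes, 9 were tested. From ESC to EpiLC 5 rose and 3 fell, with a median of 0.37, led by the receptor gene Erbb3 (2.73) and Fgf8 (2.61) upward and by Kit (-1.77) and the ligand gene Fgf4 (-0.87) downward. From EpiLC to PGCLC_d3 6 rose and 3 fell, with a median of 2.46, led by Kit (4.75) and Fgf8 (3.85) upward and by Fgf4 (-6.06) and Fgfr4 (-0.64) downward. After aggregation 0 rose and 6 fell, with a median of -0.53, where 25.7% of all tested genes rose and 44.8% fell. Their part in the levels of the feedback genes was not tested.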

How the data were processed

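The data are 8 RNA-seq libraries in 4 groups, grouped and numbered by their titles. The labels' protocols name PicoPure for RNA isolation, then SMART-Seq v4 and KAPA Hyper Prep for the libraries. The submitters' processing notes list bcl2fastq 2.20, cutadapt 1.1.6, HISAT2 2.1.0, featureCounts of Subread 1.6.5 and build rn7. The authors deposited log2(TPM+1) per gene and library, and these log2 values were used as they are. TPM is relative to a library's total, so a few abundant genes can shift all others. Beside 22228 named genes the table holds 11066 rows with a blank symbol, which entered no step.

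Tests used limma 3.58.1 under R 4.3.3 (eBayes with trend, 2-sided) in 1 fit of the 8 libraries, leaving 4 residual degrees of freedom. Of the named genes, 13571 reached 1 TPM in 2 or more libraries. Benjamini-Hochberg adjustment ran over these within each comparison, with a threshold of 0.05. The fit was tested on simulated data with the same normal spread for every gene, which checks the code and not the calls given here. The 10 genes and all other lists were chosen with earlier results of these data known. From each pathway list, the 2 called genes with the largest rise and the 2 with the largest fall at the first 2 steps are named, except 1 that is not reported here. Levels of Ccnd1, Fos, Fgfr1, Fgfr2, Kit, Fgf4, Fgf8, Egfr and Hbb are given beyond that rule, chosen after they were seen. So are the differences of Fos, Ier3 and Fgfr2 after aggregation. The CIC octamer TCAATGGA was added to the motif search after the windows were seen. Alternatives were other pseudocounts, filters and scalings, eBayes without trend or robust, fits of 2 groups alone, the replicate number as a block, and leaving out each library.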

Additional observations from a re-analysis of the deposited data

How the results depend on the processing

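Each of the 6 comparisons of the 10 genes was recomputed under 18 alternatives. Of the differences of single genes, 1061 kept their direction and their side of the threshold, 8 lost the call, 10 gained it and 1 turned its sign, Etv5 in PGCLC_d3 versus ESC (-0.065 under median-of-ratios rescaling). The number of the 10 genes called stayed within 1.5 times its value in all comparisons and alternatives, but the number called lower in PGCLC_d3 versus EpiLC went from 0 to 3 under median-of-ratios rescaling and under quantile normalization. Without 1 library at a time, a fit in which the lone library of a group is assumed to vary like the others, it was 10 in EpiLC versus ESC and in PGCLC_d3ag3 versus EpiLC, 7 in PGCLC_d3 versus EpiLC and 9 to 10 in the other 3 comparisons. With the replicate number as a block, 10 of the 10 genes were called in PGCLC_d3ag3 versus ESC in place of 9, and no other call on them changed. Whether the numbers pair the samples is not said in the labels. Deviations of same-numbered libraries correlated at -0.037 to 0.066, which shows little shared deviation but cannot tell whether they were made in pairs. A pseudocount of 5 in place of 1 shrank differences of genes low in ESC, from 3.64 to 2.30 for Spry1 and from 1.31 to 0.63 for Dusp4. Low levels in ESC, above all of Dusp9, limit how well those differences are known.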
